A study of Rattus norvegicus with 120 samples.

Results

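Alcam and Cblb are neighbouring genes on rat chromosome 11 whose levels in the eye rose and fell together between animals. The pair was chosen by its correlation over these same arrays, one of the largest between neighbouring genes, so that correlation is described here and carries no test. Each gene was measured by 1 Affymetrix probe set annotated to its symbol alone, and the pair makes up 2 of 12326 measured genes. The arrays came from 120 male F2 rats, 12 weeks old, from crossing SR/jrHSD with SHR/SP, both inbred, of which SHR/SP is a stroke-prone hypertensive line. RNA of both eyes of an animal was hybridised to 1 array with no replicate array, so the spread between arrays holds the animal and the measurement error together. The labels put all animals in 1 group, and genotypes were not used here. The sample titles carry an S code (10 codes of 11 to 13 arrays), which in the dated titles matches the date, and an L code (22 codes of 2 to 11 arrays), and the labels explain neither. Values are on the log2 scale of robust multi-array averaging (RMA), where a difference of 1 is a doubling. Except where deposited values are named, S code means had been subtracted and the overall mean added back. Animals are named as in the titles (R15).

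Alcam encodes a cell adhesion molecule of the immunoglobulin superfamily, which binds to itself on neighbouring cells and to Cd6 on T cells. In the nervous system it is known for the growth and bundling of axons, among them those of retinal ganglion cells. Cblb encodes a RING-type ubiquitin ligase of the Cbl family, which attaches ubiquitin to activated receptors and kinases and so limits their signalling, and which is best known as a brake on T cell activation.

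Arrays of 2 animals stood apart. The median correlation of R63, marked in its title as a rescan, with the remaining arrays was 0.937, and that of R15 was 0.970, while the typical array reached 0.989. Values without these arrays are printed beside the main correlations, the code tests, most counts in gene lists and the distribution shapes. Most other values, among them the r of most single genes, are given for all arrays only. Markers of the eye were abundant, with a median log2 level of 12.2 over 9 lens genes and 12.1 over 7 rod genes. Skeletal muscle genes (median 10.9 over 9) came with the tissue, and lymphocyte and leukocyte genes were low (median 5.26 over the 6 of 12 that passed the filter on low values). In such whole-tissue RNA, fewer cells of a type and less RNA per cell cannot be told apart.

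The promoter windows of the 2 genes are shown because the pair moved together and each window is a place to compare the genes. Both come from RefSeq on the GRCr8 assembly and hold 250 bases before the annotated start and 50 after it. That of Alcam lies on the plus strand at chr11:61805207-61805506 and that of Cblb on the minus strand at chr11:62225729-62226028, so the genes are transcribed toward each other, and no other gene measured here lies between them. Capitals mark matches, on either strand, to GGGCGG (GC box) and CCAAT.
Alcam: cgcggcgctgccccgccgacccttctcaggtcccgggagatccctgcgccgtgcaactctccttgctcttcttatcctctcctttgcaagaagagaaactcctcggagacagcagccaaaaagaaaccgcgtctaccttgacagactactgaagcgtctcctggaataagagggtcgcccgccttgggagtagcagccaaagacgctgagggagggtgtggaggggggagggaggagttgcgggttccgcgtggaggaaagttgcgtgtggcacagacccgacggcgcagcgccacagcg
Cblb: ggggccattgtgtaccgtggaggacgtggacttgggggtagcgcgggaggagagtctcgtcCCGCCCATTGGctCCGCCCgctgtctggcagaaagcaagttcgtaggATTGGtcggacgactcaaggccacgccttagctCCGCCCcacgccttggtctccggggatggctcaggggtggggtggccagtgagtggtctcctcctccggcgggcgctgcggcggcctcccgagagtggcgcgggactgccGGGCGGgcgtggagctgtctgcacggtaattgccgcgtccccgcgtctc
The Cblb window held 4 matches to GGGCGG and 2 to CCAAT, which do not overlap each other, and the Alcam window held none of either. Of all 33469 promoter windows, 33.1% held GGGCGG and 37.5% held CCAAT. Neither window held the TATA box TATAAA, which 14.2% of all windows held, the E-box CACGTG (6.42%) or the cyclic AMP element TGACGTCA (1.83%). Nor did either hold the AP-1 site, searched as TGACTCA and as its reverse complement (4.63%), the ETS core CCGGAA (14.9%) or the NRF1 palindrome (0.85%), each on both strands. The windows were 62% (Alcam) and 69.3% (Cblb) G and C, against a median of 51.7% over all windows. The pair thus shared none of the motifs searched.

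Alcam had a deposited level of 8.05 ± 0.38 (SD, n = 120), with a lowest value of 6.11, a median of 8.08 and a highest value of 8.93. Cblb had a deposited level of 6.31 ± 0.48 (SD, n = 120), with a lowest value of 4.34, a median of 6.41 and a highest value of 7.11. Both distributions had their long tail on the low side: 2 animals lay more than 1 log2 unit below the median for Alcam and 4 for Cblb, and none lay as far above it. With S code means removed the SDs were 0.35 for Alcam and 0.43 for Cblb, where the median SD of all 23326 probe sets tested was 0.16. These SDs exceeded those of 95.5% and 97.5% of the probe sets. The highest animal stood 5.87-fold above the lowest for Alcam and 8.38-fold for Cblb, and with the 5 animals at each end set aside these ranges were 2.13-fold and 2.45-fold.

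The 5 lowest animals were the same for both genes (R15, R63, R92, R105 and R115), while the 5 highest shared 3. R15 was lowest for both, at 6.19 for Alcam and 4.27 for Cblb. R92, R115, R105 and R63 followed for Alcam at 7.10, 7.17, 7.31 and 7.45. For Cblb the order was R63 (4.71), R92 (4.78), R105 (5.10) and R115 (5.26). The 5 animals came from 5 different S codes and 5 different L codes. Their actin 3' minus 5' difference is a control that reports RNA integrity and labelling. With S code means not removed it lay between 1.04 and 1.65, where all animals spanned 0.796 to 1.72 with a median of 1.17. Against the mean of its own S code it was higher in R15 (1.65 against 1.35) and R92 (1.24 against 1.08). It was also higher in R105 (1.47 against 1.25) and R115 (1.17 against 0.953), and lower in R63 (1.04 against 1.16). At the other end, R70 had the highest Cblb level (7.34) and R3 the highest Alcam level (8.74).

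**Figure D1:**
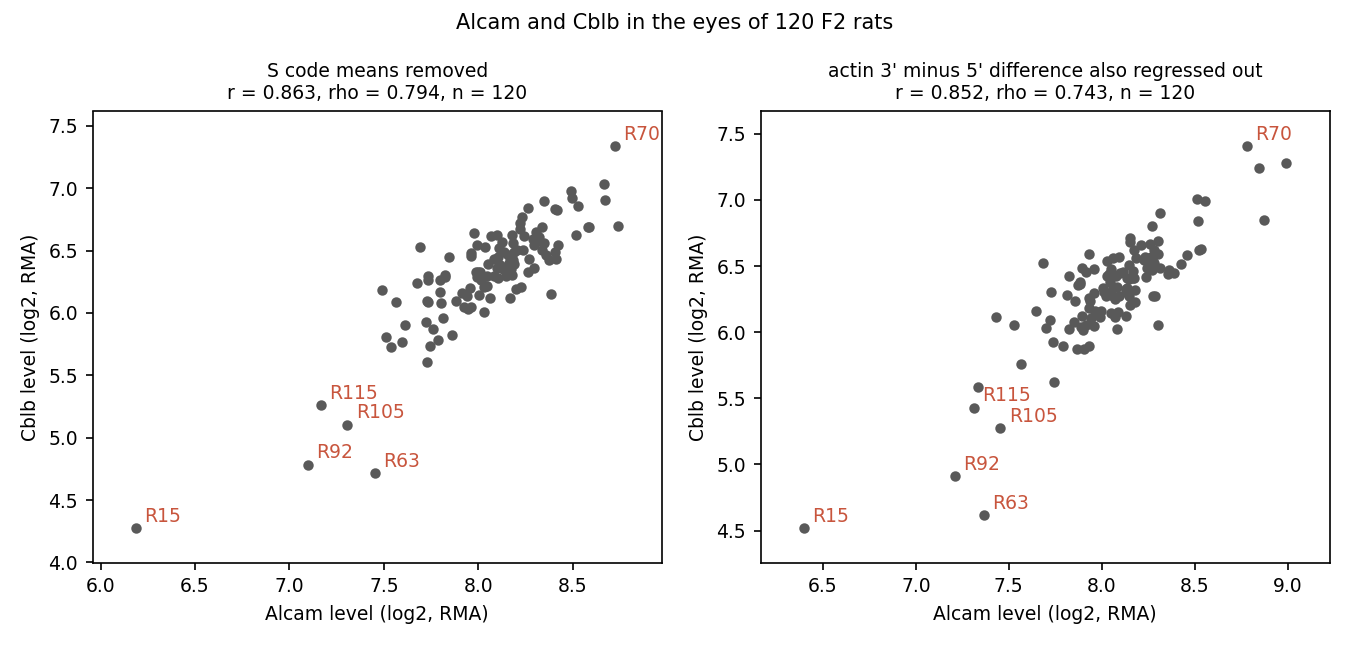
Log2 level of Cblb against that of Alcam in each of 120 animals (1 point an animal, with some animals named), with S code means removed on the left and the actin 3' minus 5' difference also regressed out on the right. Both panels show a single elongated cloud, with r = 0.863 on the left and 0.852 on the right, and R15, R63, R92, R105 and R115 at the low end, apart from the cloud on the left.

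Both genes differed between S codes, and the codes held less of their variance than of that of the median probe set. Alcam was highest in S code 6 (deposited mean 8.32 ± 0.44, SD, n = 12) and lowest in S code 10 (7.85 ± 0.24, n = 13), a 1.38-fold difference (adjusted p = 0.0149, limma's moderated F test over 10 codes). Cblb was highest in S code 4 (6.58 ± 0.21, n = 12) and likewise lowest in S code 10 (5.94 ± 0.23, n = 13), a 1.56-fold difference (adjusted p = 0.00528, limma). Both members thus passed, where 92.1% of all probe sets tested did. The S codes held 16.4% of the variance of Alcam and 18.5% of that of Cblb, below the median of 30.8% over all probe sets. Without animals R63 and R15 the adjusted p was 0.00107 for Alcam and 1.91e-05 for Cblb (limma). The values within the codes overlapped widely, and codes with a low animal had a large SD, namely S code 1 with R15 (Alcam SD 0.64) and S code 8 with R92 (Cblb SD 0.63).

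**Figure D2:**
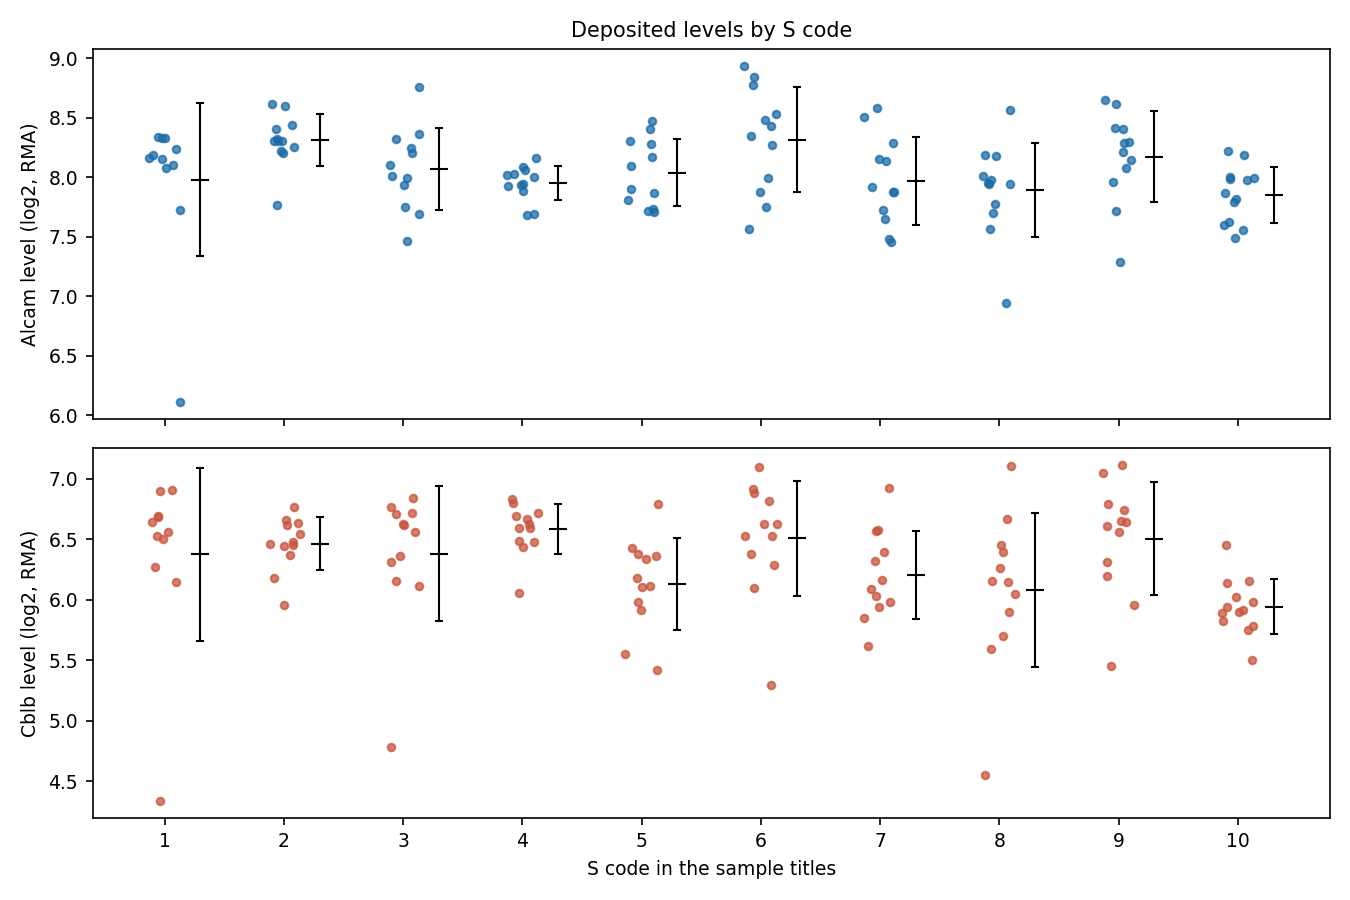
Deposited log2 levels of Alcam (top) and Cblb (bottom) by S code, 1 point an animal, with the mean and SD of each code as a black bar beside the points. S code 10 has the lowest mean of both genes (7.85 and 5.94). Single animals lie far below the others in S codes 1 and 8 for both genes, and in S codes 3 and 6 for Cblb.

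Between L codes neither gene passed the test over all probe sets, although both had a low unadjusted p. For Alcam the means ran from 7.50 in L code 4 (SD 1.14, n = 3, with R15) to 8.50 in L code 1 (SD 0.21, n = 3). The adjusted p was 0.119 (limma's moderated F test over 22 codes with the S code as covariate), and the unadjusted p was 0.0119. For Cblb the means ran from 5.66 in L code 13 (SD 0.82, n = 3, with R63) to 6.66 in L code 14 (SD 0.50, n = 5), with an adjusted p of 0.0904 and an unadjusted p of 0.00703 (limma). So 0 of the 2 members were called, against 4.58% of probe sets tested, and 2 of 2 had an unadjusted p under 0.05, as 21.3% of all probe sets did. After S codes the L codes held 31.4% of the remaining variance of Alcam and 32.6% of that of Cblb, above the median of 22.8% over all probe sets. Among the 15 codes of at least 5 arrays, Alcam ranged from 7.86 in L code 21 to 8.32 in L code 6, a 1.38-fold difference, and Cblb from 6.12 in L code 20 to 6.66 in L code 14, a 1.46-fold difference. The order of the codes was alike for both genes, with r = 0.886 (rho = 0.921) over the 22 means, a description of the same animals that made the pair. Without animals R63 and R15 the adjusted p was 0.177 and 0.0673 (limma), so neither passed. With the actin and the GAPDH 3' minus 5' differences as covariates, both passed at an adjusted p of 0.0152 (limma), where 9.1% of probe sets did.

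**Figure D3:**
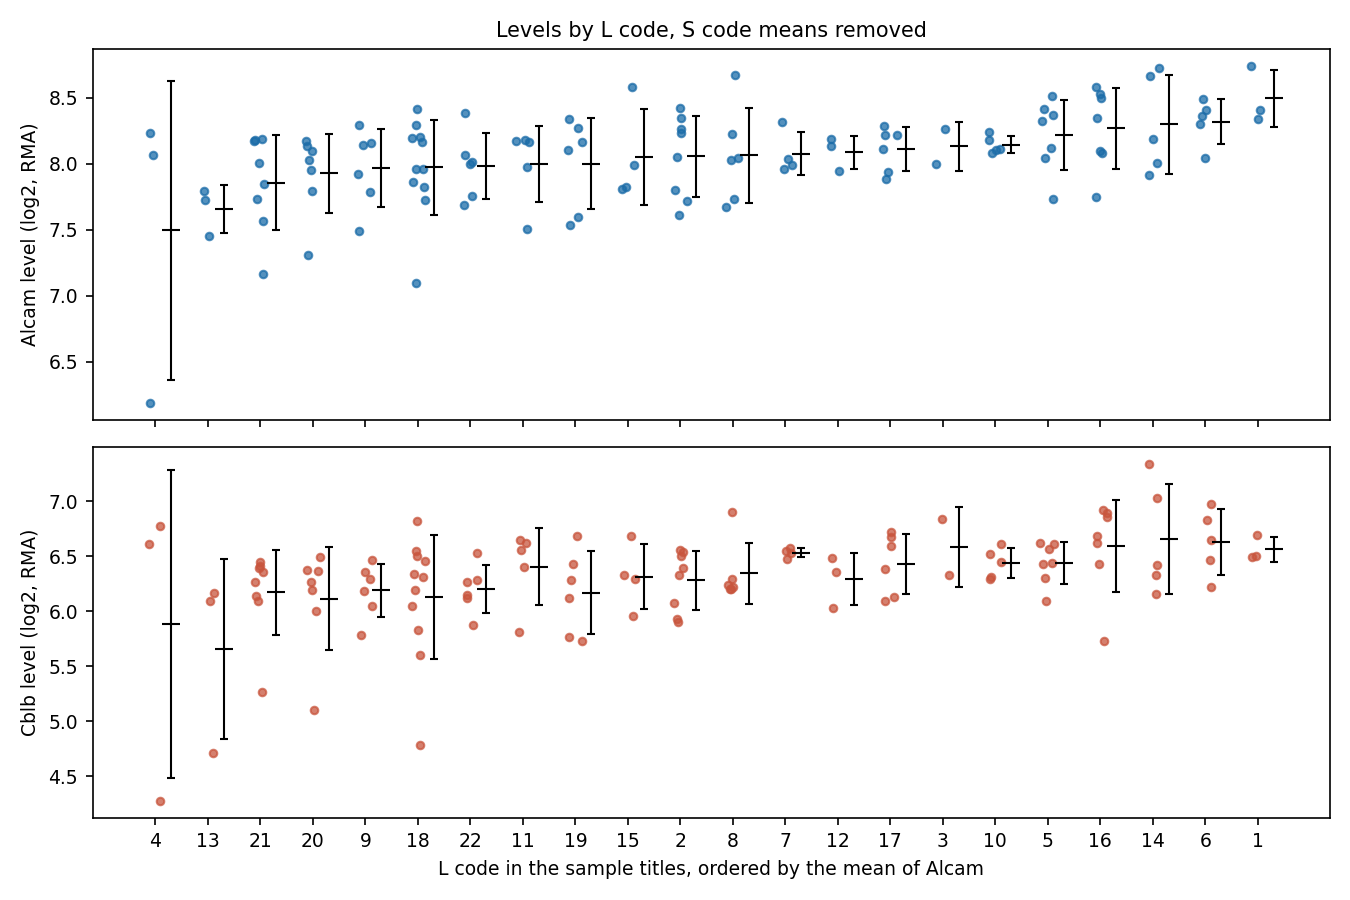
Log2 levels of Alcam (top) and Cblb (bottom) by L code with S code means removed, codes ordered by the mean of Alcam, 1 point an animal and the mean and SD of each code as a black bar. Codes 4 and 13 stand lowest for both genes, each with 3 arrays and with R15 or R63 among them, and most other codes overlap.

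Over the 120 animals the pair had r = 0.863 and rho = 0.794, and with the actin 3' minus 5' difference regressed out r = 0.852 and rho = 0.743. With the GAPDH difference regressed out as well r was 0.842. Within the 10 S codes r was positive in every code and ran from 0.351 in S code 10 to 0.982 in S code 8, with a median of 0.858. In S code 1 the pair had r = 0.965 but rho = 0.455, and that code holds R15. Without animals R63 and R15 the pair had r = 0.831 and rho = 0.761, and without R15 and R92, the farthest from the median of Alcam, r = 0.811. With L code effects fitted beside the S codes r was 0.842. Within the 11 L codes of at least 6 arrays r was positive in 10, from 0.579 to 0.957. In L code 22, whose 6 animals all belong to S code 10, it was -0.171 (rho = -0.371). Of the 10 codes with positive r, L code 8 (n = 6) had r = 0.76 but rho = -0.0286.

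The correlation was lower once the main axes of variation of all arrays were taken out. The first principal component, with 22.4% of the variance, had r = 0.630 with Alcam and 0.566 with Cblb, and r = -0.784 with the actin difference. The second, with 14.1%, had r = 0.483 with Alcam and 0.626 with Cblb, and r = 0.851 with the 75th percentile of the array's values. With the first component removed the pair had r = 0.792, with 2 removed 0.627 and with 5 removed 0.543 (rho = 0.420). The components were computed from all 23326 probe sets, the pair included. The part that the actin difference or the spread of array values has in the correlation was not tested.

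Genes around the pair mostly did not follow it. Of 12261 pairs of neighbouring measured genes, the pair's r was the 3rd largest, where the median was 0.136, and with 5 components removed it was the 82nd largest (median 0.0368). The 6 nearest measured genes before Alcam were, from the nearest, Nfkbiz (r = -0.0992 with Alcam), Nxpe3 (-0.271), Cep97 (0.0138), Rpl24 (0.128), Zbtb11os1 (-0.462) and Pcnp (-0.336). After Cblb came LOC100909405 (r = -0.143 with Cblb), Bbx (0.668), Cd47 (-0.168), Ift57 (-0.0939), Dzip3 (-0.129) and Retnla (-0.146). Bbx, an HMG-box gene, was the one flanking gene whose r with both members exceeded 0.3 (0.675 with Alcam), and with 5 components removed its r was -0.0497 with Alcam and -0.0421 with Cblb. Over the 12 flanking genes the median r was -0.221 with Alcam and -0.136 with Cblb, and 9 of 12 were below 0 for each. Leaving out animals R63 and R15, these medians were -0.258 and -0.230, 10 of 12 were below 0 for each, Bbx had r = 0.647 and 0.654, and the pair's r was the 8th largest between neighbours. Over all 327 other measured genes of chromosome 11 the median r with Alcam was -0.102, near the -0.0687 of all genes. Among the 12 flanking genes Bbx alone thus had a high correlation with the pair.

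Genes on other chromosomes had correlations with Alcam and Cblb as high as the pair's own. Among 12325 other genes, Cblb ranked 5th by r with Alcam, and Alcam ranked 7th by r with Cblb. Ahead of Cblb for Alcam were Ccnt2, a cyclin of the transcription elongation kinase P-TEFb (r = 0.875), the ETS factor gene Elk4 (0.869), the proteasome subunit gene Psmd11 (0.867) and Lysmd3 (0.865). The next most like were Tcf4, a basic helix-loop-helix factor (0.859), Nfia, a nuclear factor I gene (0.858), the chromatin regulator genes Ing1 (0.855) and Mtf2 (0.852), Mfap3 (0.847) and the lysophosphatidic acid receptor gene Lpar1 (0.846). For Cblb the list was led by Trappc5, of a vesicle tethering complex (r = 0.895), Efr3a, which anchors a lipid kinase at the plasma membrane (0.894), and Nfia (0.885). Psmd11 (0.874), Elk4 (0.867), Fam177a1 (0.867), Lysmd3 (0.862), the RNA helicase gene Helz (0.860), the splicing factor gene Mfap1a (0.857) and Ccnt2 (0.855) followed. These 15 genes lie on chromosomes other than 11, and 5 of them were on both lists of 10. The 5 most like with the actin difference regressed out came from the same genes, led by Ccnt2 for Alcam (0.875) and Trappc5 for Cblb (0.888).

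In all, 83 genes had r above 0.7 with Alcam and 97 with Cblb, the pair left out. The lists shared 75, or 90.4% of the first and 77.3% of the second, and the genes of either lay on 21 chromosomes. Their median SD was 0.36, against 0.148 over all genes. Opposite to the pair ran Sec61a2, of the protein translocation channel (r = -0.688 with Alcam and -0.611 with Cblb), Ube2r2, a ubiquitin-conjugating enzyme (-0.683 and -0.630), the pseudogene Rpl37-ps2 (-0.606 and -0.604), the ubiquitin ligase gene Znrf1 (-0.604 and -0.563) and the stress granule gene G3bp2 (-0.578 and -0.441). The mannosyltransferase gene Alg9 (-0.611) and the R-spondin receptor gene Lgr5 (-0.604) were the others of lowest r with Cblb. When animals R63 and R15 were left out, the genes with r above 0.7, the partner included, numbered 53 for Alcam against 84 with all animals, and 68 for Cblb against 98. Cblb then ranked 3rd for Alcam and Alcam still 7th for Cblb, and 8 and 7 of the 10 most like genes were again among the 10 most like. With 5 components removed no gene had r above 0.7 with either member, Cblb ranked 12th for Alcam and Alcam 23rd for Cblb.

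**Figure D4:**
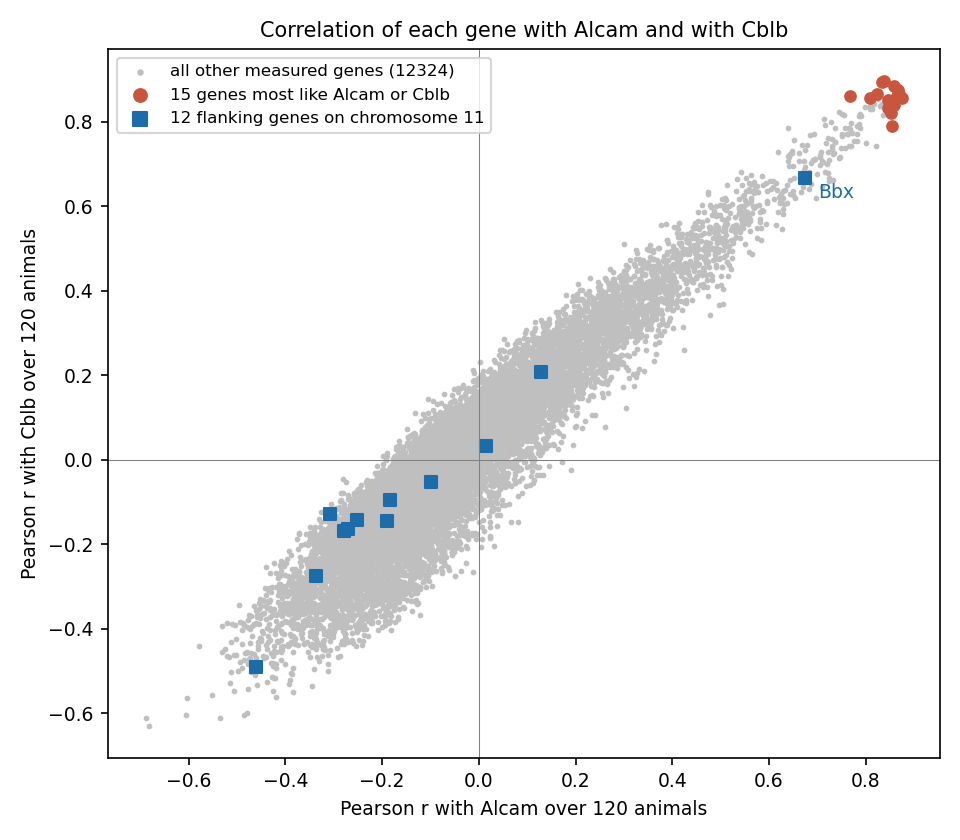
Pearson r with Alcam (x axis) and with Cblb (y axis) over 120 animals for 12324 other genes (grey), the 15 genes most like Alcam or Cblb (red circles) and the 12 flanking genes on chromosome 11 (blue squares). The grey cloud lies along the diagonal, the red circles sit at its upper end, and of the blue squares Bbx alone stands near them (0.675 and 0.668).

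Further probe sets of the most like genes did not all share the likeness. The 15 genes were picked for the high r of 1 probe set each. Lower values in their further probe sets, which were not picked by r, thus follow in part from that choice. Of the 15 genes, 10 had further probe sets above the filter, 18 in all. Their median r was -0.059 with Alcam and 0.031 with Cblb, and they spanned -0.524 to 0.893 with Alcam. For 5 genes at least 1 further probe set had r above 0.5 with Alcam, namely Mtf2 (0.893), Tcf4 (0.767), both further sets of Nfia (0.727 and 0.589), Efr3a (0.726) and Trappc5 (0.696). The 2 further sets of Ccnt2 had r = -0.410 and -0.211, those of Elk4 -0.101 and -0.0884, that of Psmd11 -0.0302, that of Ing1 -0.30 and that of Lpar1 0.154. Mtf2, Efr3a and Trappc5 had probe sets of both kinds, and the second set of Trappc5 reached -0.524. The number of sets above 0.5 was 6 for each member, and likewise 6 without animals R63 and R15. Alcam and Cblb had 1 probe set each, so whether other stretches of their transcripts varied in the same way was not measured.

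**Figure D5:**
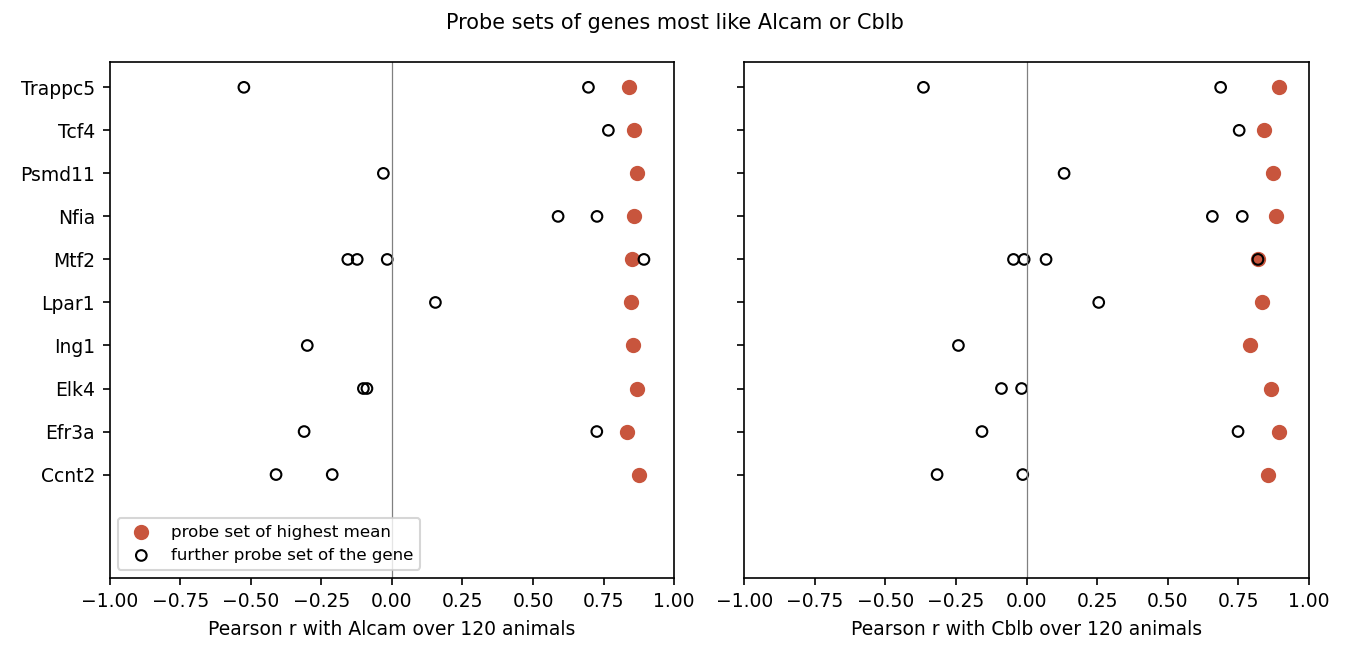
Pearson r with Alcam (left) and Cblb (right) over 120 animals for the probe sets of 10 genes most like either member, with the probe set of highest mean as a filled circle and further probe sets as open circles. Filled circles, on which the genes were picked for high r, lie between 0.791 and 0.895. Open circles, not picked by r, spread from -0.524 to 0.893.

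Most genes of the adhesion and Cbl pathways had low correlations with the pair, and some lists held more genes with r above 0.3 than the 8.39% (Alcam) and 11.5% (Cblb) of all genes. Of 28 adhesion genes of the immunoglobulin superfamily 25 were measured, with a median r of -0.022 with Alcam, against -0.069 over all genes, and 0.048 with Cblb, against -0.016. In this list 4 genes (16%) had r above 0.3 with Alcam and 6 (24%) with Cblb, and without animals R63 and R15 4 did with each, against 5.45% and 6.03% of all genes. Their highest r belonged to Chl1, a relative of L1cam (0.715 with Alcam and 0.681 with Cblb), and to Negr1, a neuronal growth regulator (0.643 and 0.662), and the lowest to L1cam itself, which guides axons (-0.408 and -0.342). In this list 2 of 25 genes passed the L code test, the neural adhesion gene Ncam1 (adjusted p = 0.0002, limma) and the neurotrimin gene Ntm (0.0159), against 5.35% of all genes. The 6 partners of Alcam had a median r of 0.023 with Alcam, and without animals R63 and R15 of -0.132, against -0.089 over all genes. The receptor gene Cd6 had r = -0.0958 with Alcam, and the sheddase genes Adam10 and Adam17, whose products cut adhesion molecules from the cell surface, had 0.061 and 0.136. The membrane linker gene Ezr was highest of the 6 (0.359) and the only 1 above 0.3 with Alcam, against 8.39% of all genes. Without animals R63 and R15, 0 of 6 were above 0.3 with Alcam, against 5.45%. By the L code test (limma) 0 of 6 passed, against 5.35% of all genes. An unadjusted p under 0.05 was found for 2 (limma), where 22.5% of all genes had one.

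Of 22 genes of the Cbl family, its E2 enzymes and adaptors 19 were measured, with a median r of -0.025 with Cblb and -0.056 with Alcam. Above 0.3 were 3 genes (15.8%) with Cblb and 2 (10.5%) with Alcam, against 11.5% and 8.39% of all genes. Without animals R63 and R15 it was 1 (5.26%) with each, against 6.03% and 5.45%. The family members Cbl and Cblc had r = -0.0254 and -0.217 with Cblb. The E2 enzyme gene Ube2l3 (0.547 with Cblb and 0.627 with Alcam) and the ligase gene Nedd4 (0.515 and 0.430) were highest, and the receptor tyrosine kinase inhibitor gene Spry2 was lowest with Cblb (-0.268) and the adaptor gene Sorbs2 with Alcam (-0.311). By the L code test (limma) 0 of 19 passed, against 5.35% of all genes, with 3 at an unadjusted p under 0.05, against 22.5%. Of 20 receptors and kinases that Cbl proteins are known to act on 19 were measured, with a median r of -0.083 with Cblb and -0.101 with Alcam. Of these 4 (21.1%) had r above 0.3 with Cblb and 4 with Alcam, against 11.5% and 8.39% of all genes. As many, 4 (21.1%), had r below -0.3 with Cblb and 0 with Alcam, against 7.38% and 7.45% of all genes. Without animals R63 and R15, 1 (5.26%) was above 0.3 with Cblb and 2 (10.5%) with Alcam, against 6.03% and 5.45%. The growth factor receptor genes Fgfr1 (0.589 with Cblb and 0.551 with Alcam) and Igf1r (0.462 and 0.427) were highest and the exchange factor gene Vav3 lowest (-0.377 and -0.282). The T cell kinase genes Zap70 and Lck had r = -0.263 and -0.127 with Cblb, and the receptor gene Pdgfra was the one of the 19 that passed the L code test (adjusted p = 0.0002, limma).

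Marker scores of eye tissues and cell types had weak relations with both genes. A score is the mean of a list's standardised genes. For the scores and the actin and GAPDH 3' minus 5' differences together, 28 relations were tested with 100000 permutations within S codes. The tests were two-sided and Benjamini-Hochberg adjusted over the 28, and 7 passed for Alcam and 6 for Cblb by r. Both control differences passed for each gene and are among these counts. The lymphocyte and leukocyte score had r = -0.289 with Alcam (adjusted permutation p = 0.00959) and rho = -0.275 (0.0104). With Cblb it had r = -0.287 (adjusted permutation p = 0.00959) and rho = -0.208 (0.054). Without its 2 farthest animals r was -0.234 and -0.221, and without animals R63 and R15 it was -0.292 and -0.279. Within S codes r was below 0 in 8 of 10 codes for each gene, from -0.532 to 0.173 for Alcam and from -0.714 to 0.458 for Cblb. Its markers were at low levels, 5 of 12 below the filter.

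The control differences had relations of similar size. The GAPDH 3' minus 5' difference had r = -0.380 with Alcam (adjusted permutation p = 0.00868; rho = -0.412, 0.000467) and r = -0.348 with Cblb (0.00959; rho = -0.377, 0.000467). Within S codes it was below 0 in 8 of 10 codes for Alcam (from -0.844 to 0.163) and in 9 of 10 for Cblb (from -0.851 to 0.147). The actin difference had r = -0.293 with Alcam (adjusted permutation p = 0.0107; rho = -0.307, 0.00462) and r = -0.274 with Cblb (0.0156; rho = -0.263, 0.0145), below 0 in 8 and 7 of 10 codes. Without the 2 animals farthest in the difference r was -0.452 and -0.424 for GAPDH and -0.351 and -0.327 for actin (Alcam and Cblb). Without animals R63 and R15 it was -0.307 and -0.316 for GAPDH and -0.249 and -0.265 for actin, and each still passed. Animals with larger differences thus had lower levels of both genes.

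Scores of the eye's own tissues changed with the animals and the settings. The corneal and conjunctival epithelium score had r = 0.352 with Cblb (adjusted permutation p = 0.00991; rho = 0.171, 0.126) and r = 0.254 with Alcam (0.0221; rho = 0.119, 0.291). Without the 2 animals farthest in the score r was 0.133 and 0.0989, and without animals R63 and R15 it was 0.107 and 0.0826. The rod score had r = 0.273 with Cblb (adjusted permutation p = 0.0142; rho = 0.183, 0.102) and 0.246 with Alcam (0.0258; rho = 0.231, 0.0384), and without the 2 animals farthest in the score r was 0.330 and 0.331. Without animals R63 and R15 it was 0.158 and 0.153 (adjusted permutation p = 0.163 and 0.197). The lens score had r = 0.268 and 0.204 with Cblb and Alcam (adjusted permutation p = 0.0156 and 0.0374; rho = 0.126 and 0.0516, 0.272 and 0.683), with r = 0.297 and 0.194 without the 2 animals farthest in the score and 0.0537 and 0.0412 without animals R63 and R15. The Mueller glia and astrocyte score had r = -0.237 with Alcam (adjusted permutation p = 0.0267; rho = -0.384, 0.000467) and r = -0.113 with Cblb (0.391; rho = -0.335, 0.00235). After leaving out animals R63 and R15, this score had r = -0.464 with Alcam and -0.455 with Cblb (adjusted permutation p = 0.00014 for each). With the actin difference regressed out of both it had r = -0.138 with Alcam (adjusted permutation p = 0.335) and -0.00876 with Cblb (0.927). By rho it still passed in that setting, at -0.285 with Alcam (adjusted permutation p = 0.0257) and -0.256 with Cblb (0.0423). The retinal ganglion cell score did not pass by r (-0.191 with Alcam, adjusted permutation p = 0.0839, and -0.0631 with Cblb, 0.567) but passed by rho (-0.339, 0.00235, and -0.289, 0.00904), and without animals R63 and R15 r was -0.367 and -0.325 (adjusted permutation p = 0.00238 and 0.00628). With the actin difference regressed out the ganglion cell, rod and lens scores did not pass for either gene by r, with r = -0.111 and 0.0236 for ganglion cells, 0.188 and 0.220 for rods and 0.162 and 0.234 for lens (Alcam and Cblb). Skeletal muscle, pigment cell, gland, fibroblast, endothelium and bipolar and amacrine scores did not pass by r for either gene, with r between -0.109 and 0.127. Without animals R63 and R15 the endothelium score passed for both, with r = -0.334 for Alcam and -0.394 for Cblb (adjusted permutation p = 0.00345 and 0.00149), as did the fibroblast score (r = -0.257 and -0.224, 0.0252 and 0.0489) and, for Cblb, the bipolar and amacrine score (-0.236, 0.0376). Within single S codes each of these relations ran in both directions. The part of R63 and R15 in the relations lost or gained was not tested further.

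An F2 in which 1 locus sets a gene's level has 3 genotypes at 1:2:1 and so up to 3 levels, and neither member was called for such a shape. The fitted mixtures placed the middle and high levels together, at 8.14 for Alcam and 6.38 for Cblb, with low levels of 7.75 and 4.99. The Bayesian information criterion (BIC) of a 1:2:1 mixture of normal distributions was higher than that of the best single distribution by 22.4 for Alcam and 34.2 for Cblb, where a call needs it to be lower by more than 10. So 0 of 2 members were called, against 0.244% of probe sets. In both cases a t distribution, which has heavy tails, was the best of the 3 single shapes, and the skewness was -1.48 for Alcam and -1.74 for Cblb. With animals R63 and R15 left out the BIC was higher by 8.19 for Alcam, where a normal distribution was then the best single shape, and by 21.1 for Cblb. The skewness was then -0.41 and -0.942, and again 0 of 2 were called.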

How the data were processed

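The deposited values were on a log2 scale, and per the submitters' processing notes RMA gave them. Its version, the array annotation and the genome build are not given in the sources used here. RMA removes background, evens out array distributions and joins the probes of a set, which can hide a shift common to most genes, and a strain variant under a probe can read as a change in level. Array medians lay between 5.78 and 5.96; the number of arrays sets the precision. Of 31099 probe sets, 57 were controls. The filter on low values kept the 23326 probe sets whose mean reached 4.283, the 25th percentile of all values, and the probe set of highest mean stood for each of 12326 genes. Names came from the platform annotation updated by Entrez number with RefSeq (GRCr8), used for names and gene order; 20826 probe sets had 1 symbol, and 20758 of these matched. No 2 arrays were alike enough to be 1 sample (smallest SD of a difference 0.173). Differences between S codes and between L codes were tested in limma 3.58.1 under R 4.3.3 (moderated F, Benjamini-Hochberg over all probe sets, threshold 0.05), and scores with 100000 permutations within S codes in Python 3.11.15. With 1 array an animal, p-values rest on biological and technical spread combined.

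The members and lists were chosen with earlier results of these data known. Named genes were the 10 of highest and 5 of lowest r with each member, the 5 of highest r with the actin difference regressed out, 6 measured genes on each side, and list members past the L code test or of extreme r. Alternatives were no removal of S code means, other covariates, no filter, a threshold of 0.01, rescanned arrays or animals R63 and R15 left out, array medians subtracted, principal components or L codes removed, each S code left out, and Spearman rho. The F tests and the permutation test were tried on simulated normal values, which lack the skew seen in Alcam and Cblb. The mixture call was tried on simulated normal, t and skewed values and on widely spaced levels. The outcomes are not given here.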

Additional observations from a re-analysis of the deposited data

Results flagged for a closer look

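Within L codes of 4 to 10 arrays, 1 animal lay far from the others for Cblb in 4 cases, by Dixon's test of the gap to the nearest animal over the range. In L code 8 (n = 6) animal R40 had a Cblb level of 6.91 and the others lay between 6.21 and 6.30. In L code 16 (n = 7) animal R75 had 5.73, with the others between 6.43 and 6.92. In L code 20 (n = 7) animal R105 had 5.10, with the others between 6.01 and 6.49, and in L code 21 (n = 8) animal R115 had 5.26, with the others between 6.09 and 6.45. No Alcam value was set apart in this way in the codes tested. The L codes of R15 and R63 (n = 3 each) and of R92 (n = 11) lay outside this size range, so these low animals were not tested. The flagged Cblb cases are 4 of 32 cases tested, where chance gives about 1 in 20 if values follow a normal distribution. Cblb had a skewness of -1.74 and a t distribution as its best single shape, so that rate may not hold. The 32 cases take 2 correlated genes in the same animals and are not independent. R105 and R115 were already known to be among the lowest animals.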

How the results depend on the processing

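The S code call held for both genes without the filter, without the rescanned arrays, without animals R63 and R15 and with array medians subtracted, and at a threshold of 0.01 Alcam no longer passed (adjusted p = 0.0149, limma). The L code result stayed above the threshold for both genes under the other settings run, except with the actin and GAPDH differences as covariates, where it was 0.0152 for each (limma), and probe sets called numbered 474 at a threshold of 0.01, 3003 with no covariate and 2123 with those covariates, against 1068. The pair's r was 0.627, 0.619, 0.583 and 0.543 with the first 2, 3, 4 and 5 principal components removed, and between 0.831 and 0.883 with each S code left out. Removing fewer than 5 components and leaving out the 2 farthest animals were chosen after seeing the data, as were the further probe sets and, without animals R63 and R15, the most like, flanking and neighbouring genes, the lists and the mixture shape. With the actin difference regressed out, 2 of 13 relations passed by r for Alcam, against 7 of 14. For Cblb 2 of 13 passed by r, against 6 of 14. The actin relation, which passed for each gene, could not enter. The Alcam and lens relation turned to r = -0.0182 with array medians subtracted. The leukocyte and GAPDH relations of Alcam passed under all 5 alternatives run and those of Cblb under 4 of 5. Over the single relations and alternatives, 28 lost their call, 22 gained one and 1 turned. The mixture shape was called for 0.137% of probe sets at a BIC difference over 20 and for 0.437% without removal of S code means, against 0.244%, and neither member was called in any setting run. The cause of these changes was not tested.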

Other observations

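Some further genes with r above 0.7 with either member are given here. They were picked after their values were seen and carry no test. The marker lists of retinal ganglion cells, Mueller glia and endothelium had median r of -0.147, -0.195 and -0.054 with Alcam. Mapt, the gene of the microtubule protein tau, had r = 0.832 with Alcam and 0.840 with Cblb, the growth cone gene Basp1 0.789 and 0.786, the myelin gene Mbp 0.783 and 0.754, the synaptojanin gene Synj1 0.758 and 0.738, and Ube3a, a ubiquitin ligase gene, 0.755 and 0.815. Nfib, a relative of Nfia, had 0.830 and 0.837, and the membrane protease gene Mmp14 had 0.776 and 0.754. On chromosome 11 lay 5 of all genes with r above 0.7 with either member, namely Slc5a3, an inositol transporter gene (0.822 with Alcam and 0.742 with Cblb), Synj1, the collagen gene Col8a1 (0.75 and 0.772), C11h21orf91 (0.714 and 0.807) and the nuclear import gene Kpna1 (0.642 and 0.716), where 2.66% of all genes lie on that chromosome.

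Among all tested probe sets, named or not, 346 had r above 0.7 with Alcam, and 63.6% of these had 1 gene symbol, against 73.7% of all probe sets tested.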
